A study of Mus musculus with 4 samples.

Results

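Ribosomal protein genes and processed copies of such genes were followed in NIT-1 cells, a mouse pancreatic β cell line, with and without added ERRγ. The members were every listed row whose Ensembl gene ID maps to Rps18, Rps3, Rpl11 or Rpl10, or to Gm12918, Gm7860, Gm16409 or Gm5745, which are copies of Rpl13, Rps2, Rps6 and Rpl36. Each symbol had 1 row, so 8 of the 406 named rows of the deposited tables were members, 4 ribosomal protein genes and 4 copies. The members were selected on measured values of these same libraries, though which of these values counted is not recorded. All ERRγ against control values below are therefore descriptions, and the adjusted p-values of the fits support no claim about the choice of genes.

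NIT-1 cells come from the NOD/Lt strain, and as background the line grew from an insulinoma of a mouse in which a rat insulin promoter drives the SV40 large T antigen. At passages 20 to 25 the cells were transfected by liposomes, using 16 µL of reagent and 8.3 µg of plasmid. The control group (2 libraries) received pRP[Exp]-CMVE>EGFP, which encodes a green fluorescent protein, and the ERRγ group (2 libraries) received pRP[Exp]-EGFP >ERRγ, which encodes oestrogen-related receptor γ, the product of Esrrg. The labels call the libraries biological replicates, and all were read from both ends at 151 bases. The share of cells that took up a plasmid is not given in the labels, and RNA came from whole cultures, so fewer expressing cells and less RNA per cell cannot be told apart.

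Ribosomal proteins are the protein part of the small (Rps genes) and large (Rpl genes) subunits of the cytosolic ribosome, and β cells rely on high translation to make insulin. Their mRNAs are short and abundant, and reverse transcription of such mRNAs into the germ line has left many processed copies in mammalian genomes, without introns and mostly away from the parent gene. A read from a young copy can match its parent, other copies of that parent, or all of them. Counts for a gene and its copies therefore depend on how reads with several possible places are assigned.

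The 4 copies were single-exon rows that differed widely in how far they have diverged from the parent, which the following sequences show. All positions are from GENCODE M21 on GRCm38, all sequences are GENCODE transcript sequences, and each stretch lies in the coding part of the parent. They are reference sequences, and whether the copies in the NOD/Lt cells differ from them was not tested. Gm12918-201 (636 bases, chr4:10848420-10849055, plus strand) was identical to Rpl13-201 over its whole length by blastn, as the first 90 bases (chr4:10848420-10848509) and the matching Rpl13 bases, counted 103 to 192 in that transcript, illustrate.
Gm12918-201: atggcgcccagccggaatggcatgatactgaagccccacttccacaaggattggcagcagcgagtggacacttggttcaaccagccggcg
Rpl13-201: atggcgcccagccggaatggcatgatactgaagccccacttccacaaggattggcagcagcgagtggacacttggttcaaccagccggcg
Rpl13, a large-subunit gene, lies elsewhere, on chromosome 8. Gm12918-201 held the same open frame of 211 codons as Rpl13-201, counting from an ATG to a stop or the end of the sequence.

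Gm7860-201 (879 bases, chr16:91539182-91540060, minus strand) was the most diverged of the 4 from its parent, at 93.651% identity to Rps2-201, the transcript of a small-subunit gene on chromosome 17. The 90-base stretch with the most differences, bases 43 to 132 of the copy (chr16:91539929-91540018), is shown with bases 210 to 299 of Rps2-201, where capitals mark the 13 bases that differ from the copy.
Gm7860-201: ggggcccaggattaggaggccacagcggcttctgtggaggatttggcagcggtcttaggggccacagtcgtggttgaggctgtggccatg
Rps2-201: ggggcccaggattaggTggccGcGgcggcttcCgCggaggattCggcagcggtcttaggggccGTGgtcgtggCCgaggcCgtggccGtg
Its longest ATG frame was 80 codons, against 293 in Rps2-201. By contrast Gm16409-201 (747 bases, chr14:73796544-73797290, minus strand) differed from Rps6-201 at 10 bases (98.661% identity) and held an open frame of 249 codons, the same length as in Rps6-201. Rps6 encodes the small-subunit protein that S6 kinases phosphorylate. Bases 371 to 460 of the copy (chr14:73796831-73796920), chosen in the same way, follow with bases 457 to 546 of Rps6-201, where 4 bases differ and are in capitals.
Gm16409-201: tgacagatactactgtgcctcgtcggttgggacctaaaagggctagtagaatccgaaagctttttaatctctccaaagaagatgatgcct
Rps6-201: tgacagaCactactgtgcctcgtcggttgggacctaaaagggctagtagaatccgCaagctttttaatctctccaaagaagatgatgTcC
The locus of Gm16409 overlaps Gm49164 on the other strand, and whether the authors counted by strand is not given in the sources used here.

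Gm5745-201 (313 bases, chr9:73175429-73175741, minus strand) had a nearer relative than its parent. It differed by 12 substitutions and a gap from Rpl36-201, a large-subunit transcript from chromosome 17 (95.253% identity), but at 1 base from Rpl36-ps8-201, a further processed copy on chromosome 4 (99.681% identity). That substitution was T287C, counted from the 5′ end of Gm5745-201, with the base of Rpl36-ps8 first. Bases 198 to 287 of Gm5745-201 (chr9:73175455-73175544) are shown with the same positions of Rpl36-ps8-201 (chr4:116839935-116840024, minus strand) and with bases 233 to 322 of Rpl36-201. Capitals mark bases that differ from Gm5745-201.
Gm5745-201: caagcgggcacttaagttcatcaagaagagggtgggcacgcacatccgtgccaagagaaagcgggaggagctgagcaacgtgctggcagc
Rpl36-ps8-201: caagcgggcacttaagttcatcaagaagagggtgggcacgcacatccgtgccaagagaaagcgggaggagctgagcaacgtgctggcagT
Rpl36-201: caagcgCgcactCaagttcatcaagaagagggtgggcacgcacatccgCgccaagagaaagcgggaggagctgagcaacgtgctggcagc
The longest ATG frame was 104 codons in Gm5745-201 and 105 in Rpl36-201. Each copy had further relatives in the annotation. Transcripts at least 90% identical over at least 90% of the copy's length came from 13 other genes for Gm12918-201, 31 for Gm7860-201, 14 for Gm16409-201 and 11 for Gm5745-201.

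The 4 gene rows were single transcripts of their genes, recognised by their length, and not the full set of transcripts. Rps3 encodes a small-subunit protein at the mRNA entry channel that also has a DNA repair activity. Its row, Rps3-205 (489 bases, chr7:99478882-99483636, minus strand), is a coding transcript that leaves out sequence of Rps3-201. The bases around the place where they part are shown, 336 to 395 of Rps3-205 and 438 to 497 of Rps3-201, with the bases after that junction in capitals.
Rps3-205: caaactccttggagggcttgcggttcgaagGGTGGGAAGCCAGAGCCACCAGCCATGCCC
Rps3-201: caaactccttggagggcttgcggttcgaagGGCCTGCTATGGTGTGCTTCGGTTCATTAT
The longest ATG frame was 144 codons in Rps3-205 and 243 in Rps3-201. Rps18, for a protein of the small subunit's head, was listed as Rps18-210 (499 bases, chr17:33951999-33952689, minus strand), which is annotated as a retained-intron transcript with no coding sequence. Bases 69 to 128 of Rps18-210 and 130 to 189 of Rps18-201 show where its 5′ end runs back into the intron, with the bases before the shared exon in capitals.
Rps18-210: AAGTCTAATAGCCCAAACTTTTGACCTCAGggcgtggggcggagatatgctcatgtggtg
Rps18-201: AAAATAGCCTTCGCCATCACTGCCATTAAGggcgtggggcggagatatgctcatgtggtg
Rpl11-210 (622 bases, chr4:136050280-136053090, minus strand) and Rpl10-201 (799 bases, chrX:74270812-74273135, plus strand) are coding transcripts. Rpl11 encodes a large-subunit protein that can bind the p53 regulator MDM2, and Rpl10 a large-subunit protein that joins late in assembly. The locus of Rpl10-201 holds Snora70, and that of Rps3-205 holds Snord15a and Snord15b, both on the same strand as the host.

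The libraries held 16605943 to 18769899 reads as recovered from the tables, of which the listed rows took 6.26% to 7.62%. The transfected gene separated the groups. The RPKM (reads scaled by transcript length and library size) of Esrrg-201 was 0.232 in control replicate 1, 0 in control replicate 2, 141 in ERRγ replicate 1 and 78.6 in ERRγ replicate 2, and plasmid and chromosomal reads were not told apart. None of 20 β cell marker genes, such as Ins1, Ins2 and Pdx1, had a listed row, nor had any of 20 markers of other endocrine, acinar, duct, blood or fibroblast cells, so the cell type could not be checked against these rows. Of 7 genes chosen to follow RNA quality only H1f0 was listed, at 215 and 236 RPKM in control and 281 and 291 RPKM in ERRγ, replicates in order. It was thus higher in both ERRγ libraries. Whether H1f0 follows RNA quality in these cells is not shown, so RNA quality could not be checked. The part of RNA quality in the values below was not tested. How the deposited rows were picked is not stated, and in 87.4% of the 406 rows the RPKM values of the groups did not overlap (41.9% higher and 45.6% lower in ERRγ).

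All 4 copies lay above both controls in both ERRγ libraries, by 1.17 to 1.28 times in the ratio of mean RPKM, against that background of 41.9%. None was called higher or lower over all rows, where edgeR's quasi-likelihood test on total reads called 6.67% of 375 rows at an adjusted p under 0.05. Gm12918-201, the row identical to Rpl13, had 533 and 505 RPKM in the controls, replicate 1 first here and below, and 604 and 608 RPKM in the ERRγ libraries. The controls lay close together, and so did the ERRγ libraries, at 519 ± 19.4 and 606 ± 3.22 RPKM (SD, n = 2 each). Its log2 fold change on total reads was 0.22 ± 0.07 (SE, edgeR, adjusted p = 0.0915).

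Gm5745-201, the Rpl36 copy, had 479 and 526 RPKM in control and 658 and 579 RPKM in ERRγ. The groups were separate but their nearest libraries, control replicate 2 and ERRγ replicate 2, were not far apart; the means were 502 ± 33.4 and 618 ± 56.2 RPKM (SD, n = 2 each). Its log2 fold change was 0.30 ± 0.12 (SE, edgeR, adjusted p = 0.132). The copies of Rpl13 and Rpl36 thus had the highest levels per length among the members.

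Gm7860-201, the diverged Rps2 copy, had 222 and 267 RPKM in control and 287 and 311 RPKM in ERRγ. Its controls lay farther apart than control replicate 2 and ERRγ replicate 1, the nearest libraries of the groups. The means were 244 ± 31.6 and 299 ± 16.99 RPKM (SD, n = 2 each), and the log2 fold change was 0.29 ± 0.12 (SE, edgeR, adjusted p = 0.141). It was 0.17 without control replicate 1 and 0.43 without control replicate 2. Gm16409-201, the Rps6 copy, was the lowest of the 4, with 82.1 and 86.0 RPKM in control and 99.9 and 115 RPKM in ERRγ. Here both ERRγ libraries lay above 2 close controls, at 84.0 ± 2.74 against 107 ± 10.6 RPKM (SD, n = 2 each). The ERRγ libraries were about as far from each other as control replicate 2 was from ERRγ replicate 1, the nearest libraries of the groups. The log2 fold change of Gm16409-201 was 0.35 ± 0.18 (SE, edgeR, adjusted p = 0.180).

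**Figure D1:**
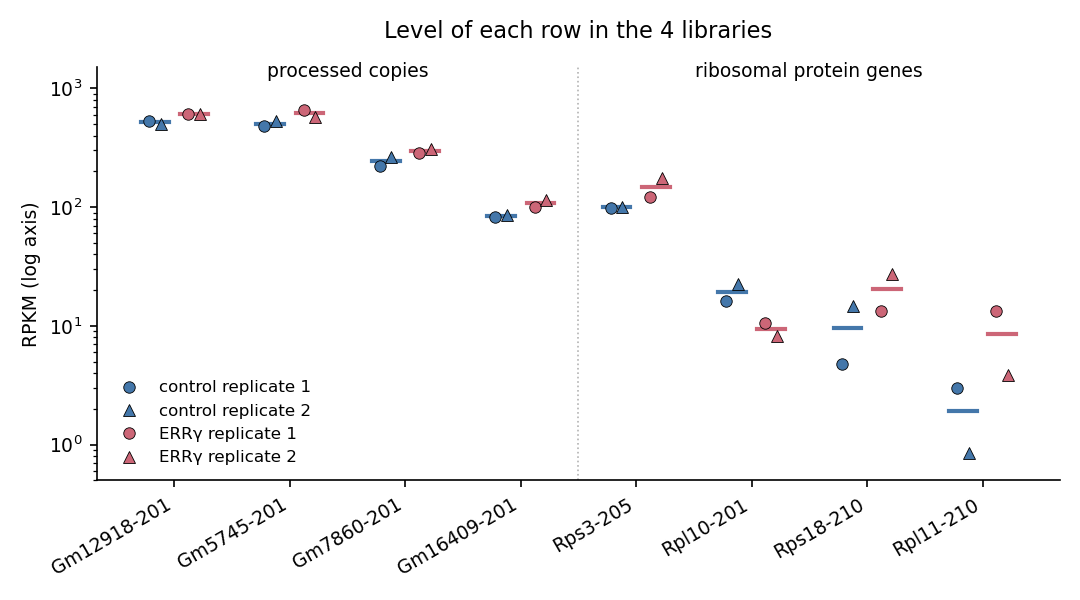
RPKM on a log axis for each member in the 4 libraries (blue, control; red, ERRγ; circles, replicate 1; triangles, replicate 2; lines, group means). Copies sit between 82.1 and 658 RPKM with close replicates, and the gene rows other than Rps3-205 sit at or below 27.3 RPKM with replicates far apart.

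The gene rows went in different directions, and their replicates lay farther apart than those of any copy except in the controls of Rps3-205. Rps3-205 had 98.7 and 101 RPKM in control and 121 and 175 RPKM in ERRγ, so both ERRγ libraries were higher but replicate 2 carried most of the gap. The means were 99.9 ± 1.67 and 148 ± 38.0 RPKM (SD, n = 2 each), and the log2 fold change was 0.57 ± 0.27 (SE, edgeR, adjusted p = 0.162). Without ERRγ replicate 2 it was 0.28, and without ERRγ replicate 1 it was 0.81.

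Rpl11-210 was the lowest member, with 2.998 and 0.856 RPKM in control and 13.3 and 3.87 RPKM in ERRγ, from 35, 9, 137 and 42 reads. Both ERRγ libraries were higher, yet ERRγ replicate 2 stood nearer to control replicate 1 than to ERRγ replicate 1. Its log2 fold change was 2.14 ± 1.27 (SE, edgeR, adjusted p = 0.223), and it ranged from 1.00 without ERRγ replicate 1 to 3.30 without control replicate 1. Replicates of either group differed by 3.501 times (control) and 3.43 times (ERRγ), against 4.44 times between the group means.

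Rpl10-201 was the 1 member with lower values in both ERRγ libraries, with 16.1 and 22.4 RPKM in control and 10.6 and 8.17 RPKM in ERRγ. The means were 19.3 ± 4.46 and 9.40 ± 1.74 RPKM (SD, n = 2 each), a ratio of 2.05 with control higher. Its log2 fold change was −1.04 ± 0.71 (SE, edgeR, adjusted p = 0.256).

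Rps18-210 did not separate the groups. It had 4.80 and 14.6 RPKM in control and 13.3 and 27.3 RPKM in ERRγ, so ERRγ replicate 1 lay below control replicate 2. The controls differed by 3.04 times, more than the 2.09 times between group means, and the log2 fold change of 1.06 ± 1.04 (SE, edgeR, adjusted p = 0.375) moved to 0.48 without control replicate 1, to 2.08 without control replicate 2 and to 0.45 without ERRγ replicate 2.

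Counted together, 6 of 8 members lay above both controls, 1 below and 1 overlapped, where 41.9% of all rows lay above and 45.6% below. On total reads edgeR called 0 of 8 (6.67% of all rows), with an unadjusted p of 0.0332 for Gm12918-201 and above 0.05 for the others, and DESeq2 called 5 of 8 higher (26.6% of all rows). The median log2 fold change was 0.33 over the 8 members and 0.30 over the 4 copies, and −0.27 over all 375 rows tested. Among the 30 listed pseudogene rows, 6 lay above both controls and 22 below, and the 4 copies were among those 6. The median over the 29 pseudogene rows tested was −0.43. Per length, the mean control levels ran in the order Gm12918-201, Gm5745-201, Gm7860-201, Rps3-205, Gm16409-201, Rpl10-201, Rps18-210 and Rpl11-210. In that order Gm12918-201 and Gm5745-201 were neighbours whose control values overlapped; the controls of every other pair of neighbours were separate.

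The calls on the copies differed between settings. Both DESeq2 and TMM scale on the listed rows alone. These rows are a selection that took 7.62% and 7.51% of the control libraries and 6.41% and 6.26% of the ERRγ libraries. The parts of tool and scaling in the calls were not tested. DESeq2, which called 26.6% of 406 rows higher on total reads, put all 4 copies and Rps3-205 among these. Its adjusted p-values were 3.59e-05 for Gm12918-201, 0.000244 for Gm5745-201, 0.00320 for Gm7860-201, 0.00331 for Gm16409-201 and 0.00686 for Rps3-205, from the DESeq2 Wald test. It called none of Rpl10-201, Rpl11-210 and Rps18-210. With TMM in place of the recovered library sizes edgeR called 0.268% of 373 rows and no member. That scaling moved the log2 fold change of all rows up by a median of 0.16, and DESeq2 moved it by 0.20, set beside changes of 0.22 to 0.35 in the copies, which became 0.39 to 0.52 with TMM and 0.43 to 0.56 with DESeq2. On total reads, in each of 11 alternative settings all 4 copies, Rps3-205, Rpl11-210 and Rps18-210 kept a positive log2 fold change and Rpl10-201 a negative one.

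Members differed most in the reads that the deposited tables call unique. Gm7860-201 had 3651, 3945, 4173 and 4756 unique reads in control replicates 1 and 2 and ERRγ replicates 1 and 2, or 99.6% of its reads over the 4 libraries. Gm16409-201 had 921, 911, 1010 and 1219, or 81.7%. Its share was 80.02% (95% interval 77.6 to 82.3), 84.0% (81.6 to 86.1), 81.5% (79.2 to 83.6) and 81.4% (79.3 to 83.3) in the 4 libraries in that order (exact Clopper-Pearson intervals, which cover counting error only), so it did not follow the groups.

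The other 6 members had under 10% unique reads. Gm12918-201 had 0 unique reads among 6361, 5431, 6377 and 6758, which allows a share of up to 0.0552% in the shallowest of the 4, taking 3 reads as the limit that a count of 0 allows. Gm5745-201 had 1, 2, 5 and 3 unique reads of 2813, 2782, 3420 and 3163, and Rps3-205 had 3, 0, 1 and 1 of 906, 835, 983 and 1493. For these rows, which include the highest levels of the set, nearly every read was one that the tables do not count as unique. The RPKM of the copies among them cannot be assigned to that locus alone, and that of Rps3-205 not to that transcript alone.

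The sequence itself follows this division in part. Of the 151-base windows of Gm7860-201, the read length here, 100% occur in no other annotated transcript, and of Gm16409-201 82.6% do, close to their shares of unique reads. No window of Gm12918-201 was its own. For Gm5745-201 27 of 163 windows (16.6%) were its own, exactly the number that cover the base at position 287 where it departs from Rpl36-ps8, while 0.0903% of its reads were unique. With windows of 100 bases the own share was 95.1% for Gm7860-201 and 49.5% for Gm16409-201.

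Gene rows had own windows but few unique reads. Own windows made up 36.0% of Rps3-205, 27.5% of Rps18-210, 25.2% of Rpl11-210 and 9.09% of Rpl10-201, and unique reads 0.119%, 3.88%, 6.73% and 3.88%. Most of their other windows are shared with further transcripts of the same gene (64.0% for Rps3-205, 72.5% for Rps18-210, 74.8% for Rpl11-210 and 90.4% for Rpl10-201). Transcripts of other genes share 90.9% of the windows of Rpl10-201 and 64.2% of those of Rpl11-210, but 7.74% of Rps18-210 and none of Rps3-205. Over the 30 pseudogene rows Spearman's rho between own windows and unique reads was 0.75 (Pearson 0.82), and over 397 rows matched to 1 transcript 0.76 (Pearson 0.89). The rows share the 4 libraries and their depth, so this is a description.

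**Figure D2:**
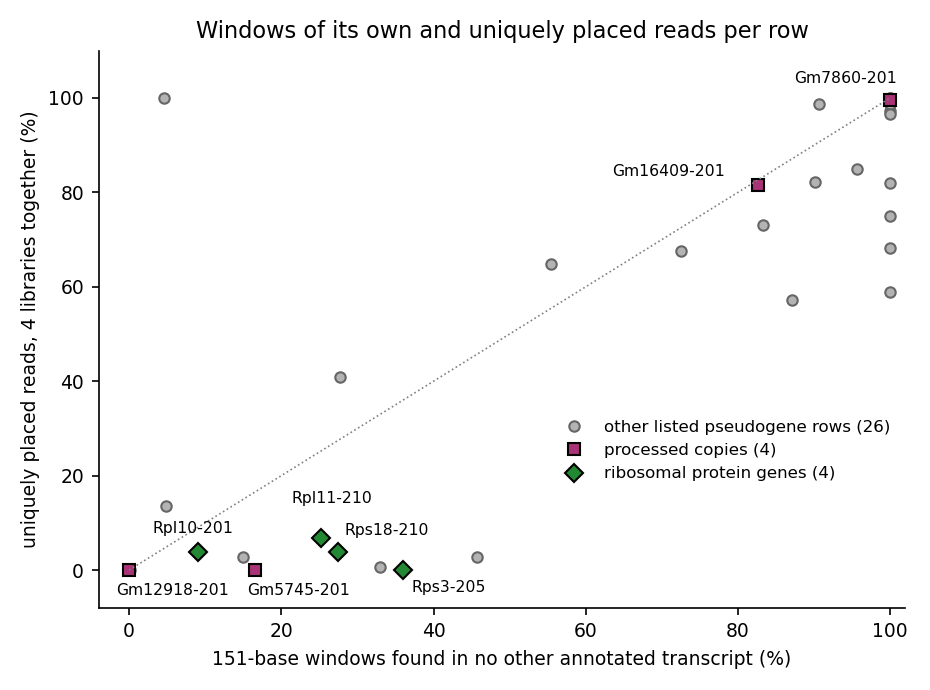
Percent of uniquely placed reads (all 4 libraries) against percent of 151-base windows found in no other annotated transcript, for the 4 copies (squares), the 4 gene rows (diamonds) and 26 other listed pseudogene rows (grey); the dotted line marks equality. Gm7860-201 and Gm16409-201 lie near the line at 99.6% and 81.7%, and Rps3-205 and Gm5745-201 lie near 0% unique reads.

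On unique reads alone, Gm7860-201 and Gm16409-201 were the 2 members with enough reads to test, and both lay above the controls in both ERRγ libraries. Per length, unique reads of Gm7860-201 stood at 243 ± 31.4 RPKM in control and 298 ± 16.9 in ERRγ (SD, n = 2 each), and those of Gm16409-201 at 68.9 ± 4.59 and 87.4 ± 8.49. The log2 fold changes were 0.29 ± 0.16 (SE, edgeR, adjusted p = 0.0905) and 0.34 ± 0.18 (SE, edgeR, adjusted p = 0.0919), and neither was called, in a fit that called 60.3% of 121 rows (11 higher and 62 lower). With TMM, which called 24.2% of 120 rows higher (29 higher and 12 lower) and moved all rows up by a median of 0.34, both were called higher at 0.64 and 0.69 (edgeR, adjusted p = 0.00646 and 0.00855). DESeq2 on unique reads called 13.0% of 131 rows higher, both copies among them (adjusted p = 0.000778 and 0.00142). Leaving out control replicate 2, a fit that called 15.6% of 135 rows higher, also put both past the threshold (edgeR, adjusted p = 0.00134 and 0.0204). Without control replicate 1, by contrast, the log2 fold change of Gm7860-201 was 0.17.

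The few unique reads of the gene rows did not all move with their totals. Rps18-210 had 5, 6, 4 and 5 unique reads while its other reads numbered 40, 117, 106 and 233, so the spread of its RPKM lay in reads that are not unique. Rps3-205 likewise had at most 3 unique reads in a library while its other reads ran from 835 to 1492. In Rpl11-210 the 3, 1, 8 and 3 unique reads were highest in ERRγ replicate 1, as were its other reads (32, 8, 129 and 39). Rpl10-201 had 9, 12, 5 and 5 unique reads, lower in both ERRγ libraries as in its RPKM. None of the 4 rows had enough unique reads for the main fit.

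**Figure D3:**
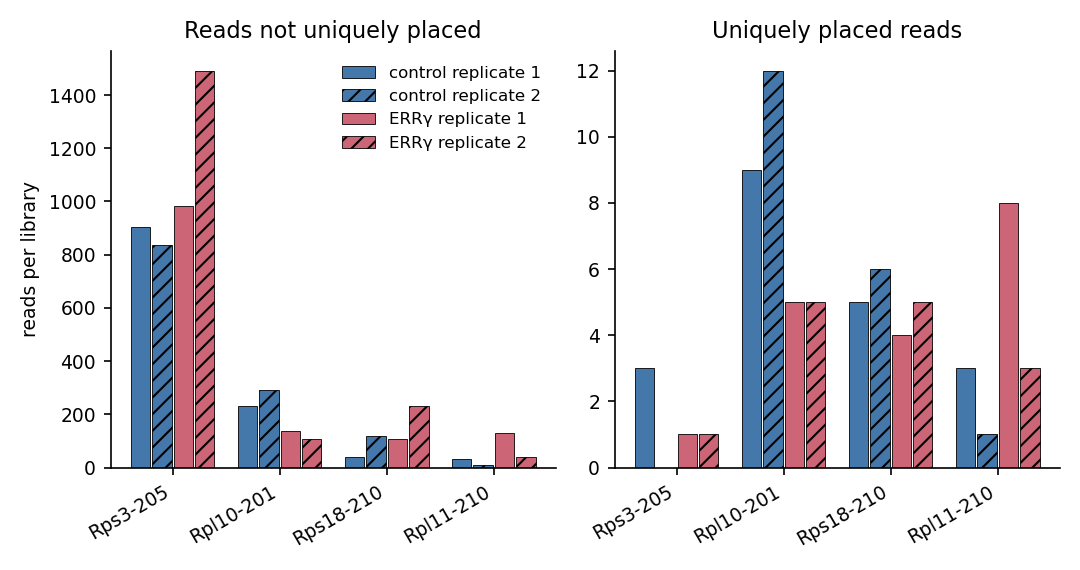
Reads per library of the 4 gene rows, on linear axes from 0, split into reads not uniquely placed (left) and uniquely placed reads (right); bars are single libraries, hatched for replicate 2. Unique reads of Rps18-210 stay between 4 and 6 while its other reads run from 40 to 233.

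Replicates of rows with few unique reads lay farther apart across the tables. Among rows with at least 50 reads on average and reads in every library, the median absolute log2 ratio between replicates was 0.50 (control) and 0.32 (ERRγ) in 173 rows with under 10% unique reads. It was 0.26 and 0.09 in 68 rows with at least 50%. The first class also had fewer reads, with a median of 373 per library against 4086, and the part of depth in this was not tested. The members did not split along that line. Gm12918-201, with no unique read, had log2 ratios of 0.08 (control) and 0.01 (ERRγ), below Gm7860-201 with 0.26 and 0.12, while Rps18-210 had 1.60 and 1.04 and Rpl11-210 1.81 and 1.78.

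**Figure D4:**
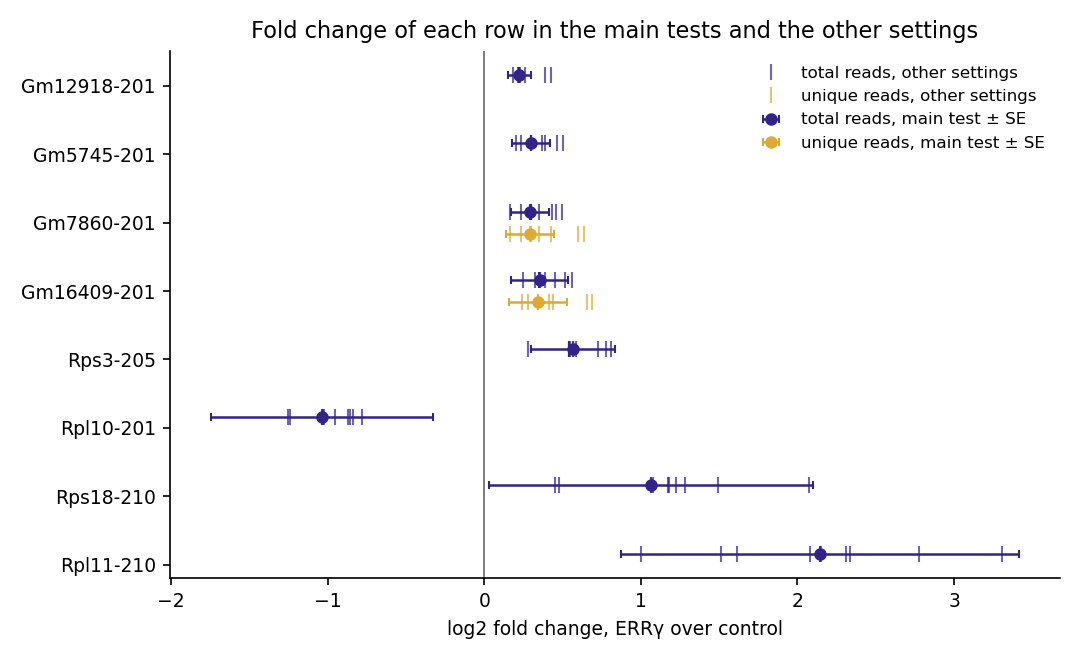
Log2 fold change (ERRγ over control) of each member on total reads (dark) and unique reads (yellow); circles with bars are the main tests ± SE and ticks the other settings. Unique reads are drawn for Gm7860-201 and Gm16409-201, the members in the main unique-read fit. The values drawn for the copies lie between 0.17 and 0.69, those for Rps18-210 between 0.45 and 2.08 and those for Rpl11-210 between 1.00 and 3.30.

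Among the further listed rows was Rpl35a-203, from a large-subunit gene, with 1.23 and 6.50 RPKM in control, from 12 and 57 reads, and no read in either ERRγ library. Taking 3 reads over the group as the floor, the row was at least 22.0-fold lower in ERRγ (edgeR, adjusted p = 0.0696, and DESeq2, adjusted p = 0.0121). This bound pools the reads of a group and covers counting error only, not the spread between libraries. The controls differed by 5.28 times. Control replicate 2 held 57 of its 69 control reads. Without that library the row was at least 7.26-fold lower and did not pass the filter of the test. Of the 69 reads 4 were unique, and 73.4% of its 151-base windows are shared with other Rpl35a transcripts. The bound therefore covers this row and not the gene.

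A pair of further copies of ribosomal protein genes did not lie above the controls. Rpl36a-ps2-201, identical to Rpl36a over its 321 bases and lying within Ddah1, had 75.0 and 15.3 RPKM in control and 8.25 and 0 RPKM in ERRγ, with 0 unique reads. Its controls differed by 4.90 times (edgeR, adjusted p = 0.254). Gm14036-201, a copy of Rpl29 within Plcb1, had reads in 1 library, 71 in control replicate 2, so its groups overlapped. It did not pass the filter of the main test (DESeq2, adjusted p = 0.104). Not all copies of ribosomal protein genes among the rows were therefore higher in ERRγ.

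Other genes of translation were nearly absent from the tables. Of 44 genes of the translation machinery 2 were listed, Eif5a-206, for an elongation factor, and Eif5-207, for an initiation factor. Eif5a-206 had 3.83 and 13.8 RPKM in control and 0 and 4.99 RPKM in ERRγ, with overlapping groups. Eif5-207, a transcript annotated for nonsense-mediated decay, had 4.37 and 2.20 against 0.470 and 0 RPKM and was lower in both ERRγ libraries (edgeR, adjusted p = 0.468 and 0.180). Of 34 genes of ribosome biogenesis none was listed. Besides Rpl11, the list for nucleolar stress and p53 had rows for Phlda3 and Cdkn1a, both p53 targets. Phlda3-201 stood at 340 and 458 RPKM in control and 545 and 596 RPKM in ERRγ, and Cdkn1a at 188 and 259 against 315 and 312 RPKM. Neither was called on total reads (edgeR, adjusted p = 0.0841 and 0.103). On unique reads both were called higher (edgeR, adjusted p = 0.00517 and 0.0263), in a fit that called 60.3% of 121 rows (11 higher and 62 lower). With all 4 libraries but no filter neither was called (edgeR, adjusted p = 0.0718 and 0.140). Both calls were also lost without ERRγ replicate 1 or without ERRγ replicate 2, and that of Cdkn1a without control replicate 1. Without control replicate 1 the log2 fold changes fell from 0.52 to 0.32 for Phlda3-201 and from 0.45 to 0.18 for Cdkn1a.

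The rows nearest in pattern were found by the Euclidean distance over the 4 libraries of log2(RPKM + 1) minus the row's mean. Nearest to Gm12918-201 were Crym-201 (0.139), with 148 and 158 RPKM in control and 177 and 188 RPKM in ERRγ, and Ldha-202 (0.160). Nearest to Gm5745-201 were Pcolce-201 (0.148) and Id1-201 (0.159). Rps3-205 was nearest to Pfdn6-204 (0.218) and Gm5069-201 (0.228). Rps18-210 was nearest to Kri1-206 (0.271), with 3.69 and 14.5 RPKM in control and 13.7 and 24.7 RPKM in ERRγ, and then to Capns1-207 (0.465). Like Rps18-210 both are retained-intron transcripts, but the share of that type among all rows was not counted.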

How the data were processed

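The members, the gene lists and the tests were chosen with earlier results of these data known. Groups and replicate numbers came from the sample titles. For each library the authors deposited RPKM values beside counts of unique and of total gene reads, per the file headers. How a read counts as unique, and the aligner and counting program, are likewise not given in the sources used; the submitters' processing notes name the build mm8, of which no coordinate was used. Of 409 rows, 3 carry no gene ID and held 0.0121% to 0.0332% of a library's listed reads; they were left out of the tests.

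Total reads divided by RPKM gave 1 library size per table and a whole length per row (within 0.01 bases), which equalled that of exactly 1 GENCODE M21 transcript of the gene for 397 rows. For a row of 1 kb, 3 reads correspond to 0.160 to 0.181 RPKM. edgeR 4.0.16 (R 4.3.3) ran the quasi-likelihood test of ERRγ against control on total and on unique counts over all rows, with these library sizes, filterByExpr, no replicate block and Benjamini-Hochberg adjustment at 0.05. SE is the fold change divided by the root of the F statistic. Alternatives were TMM, DESeq2 1.42.0, other filters, a replicate block, limma 3.58.1 on log2(RPKM + 1) and log2(RPKM + 0.1), and each library left out, where a lone library was assumed to vary like the other group; the 100-base windows for own sequence were added after seeing the data. With 2 libraries against 2, no exact permutation test can pass 0.05, so none was run.

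Rows were aligned to all GENCODE M21 transcripts with blastn 2.17.0 (e-value at most 1e-20). Windows of each row were searched, on both strands, in the other transcripts that blastn returned for that row. Genomic sequence outside annotated transcripts was not searched. The scripts were tested on simulated data. Named rows are all members, the further listed ribosomal protein genes and their copies, Esrrg, at most 4 rows of each other list by mean RPKM, and 2 nearest rows in pattern for 4 members. A result that rests on an item withheld for evaluation is not reported here.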

Additional observations from a re-analysis of the deposited data

How the results depend on the processing

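The count of rows called depended on the setting. On total reads the main test called 25 rows; TMM, no filter and the replicate block called 1 row each, DESeq2 199, a minimum mean count of 50 gave 42, and limma on log2(RPKM + 0.1) 42, with 1 to 2 when any single library was left out. On unique reads the main test called 73 rows, TMM 41, DESeq2 29 and no filter 23, with 10 to 98 when any single library was left out (10 without ERRγ replicate 2, 14 without ERRγ replicate 1); the replicate block called 71. Same-numbered libraries did not deviate together (correlation −0.02 over 406 rows). With 2 libraries per group this cannot settle whether the numbers pair the libraries. The block changed no call of a member. The cause of these differences was not tested. Where a member had a main fit, none of its alternative log2 fold changes (104 in all) changed sign. With all 4 libraries, values passed the threshold under DESeq2 or, on unique reads, TMM. Members outside the main unique-read fit are not among the 104 for unique reads. Without a filter, their few unique reads gave −0.46 ± 1.48 for Rps3-205 and −0.22 ± 0.65 for Rps18-210 (SE, edgeR), opposite in sign to total reads. Each SE was larger than the change itself. Rpl10-201 (−0.99), Rpl11-210 (1.48) and Gm5745-201 (1.41) kept the sign. DESeq2 on unique reads gave −0.13 ± 3.15 for Rps3-205 and 0.08 ± 1.49 for Rps18-210 (SE), so the sign of Rps18-210 differed between these settings. Rpl11-210 and Rps18-210 had the fewest reads of the members, 9 to 238 in a library, and 2 libraries per group limit every value. The bound on the fall of Rpl35a-203, at least 22.0-fold, became 38.3 without control replicate 1 and 7.26 without control replicate 2 (added after seeing the data).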
